A study of Mus musculus with 16 samples.

Results

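A set of 7 genes was followed that differ in the efferent ducts of mice after castration: Npy, Odam, Acbd7, S100g, Aldoc, Slc17a6 and Gabra2. They are 7 of the 18194 genes measured and were chosen on the measured difference between the castrated and the sham-operated efferent duct, so that difference is given below as a description, with no test. All 13 of their array features (probe sets) that carry exactly 1 gene symbol were examined, out of 34958 such probe sets on the array. Where a gene had several, the brightest on average was kept for the gene's value and the others are given beside it.

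Total RNA of efferent duct and of caput epididymis, the head of the epididymis into which the efferent ducts drain, was measured on 16 single-colour arrays. All mice were adult males of strain 129BL/6, and each tissue had 4 groups of 2 arrays. Sham-castrated and castrated mice received the vehicle alone (100 microL of 10% ethanol in sesame oil) on day 14 after surgery, and other castrated mice received 0.015 mg of testosterone propionate (TP) or 0.015 mg of estradiol (E2) on that day. Tissue was taken 12 h after the injection, so every array, the sham group included, comes from operated and injected mice. Castration removes the testes, and with them sperm and luminal testicular fluid as well as testicular hormones. The labels do not say whether the 2 arrays of a group came from separate animals or pools, so p-values measure only the spread between these samples, which may be technical.

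The efferent ducts are thin tubules that carry sperm from the rete testis to the epididymis. Their non-ciliated cells reabsorb most of the fluid that leaves the testis, and they are known for a high level of estrogen receptor alpha, while the caput epithelium depends on androgen and on factors in the testicular fluid. Testosterone can be converted to estradiol by aromatase and to dihydrotestosterone by a reductase. Of the 7 genes, Npy encodes a peptide transmitter of sympathetic nerves, Odam a secreted protein best known from enamel epithelium, Acbd7 a small intracellular carrier of acyl-CoA esters, S100g the vitamin D-dependent calcium carrier calbindin-D9k, Aldoc a glycolytic aldolase, Slc17a6 the vesicular glutamate transporter VGLUT2, and Gabra2 a subunit of the GABA-A receptor.

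Array quality was not even across the efferent duct groups. A background was set on each array at the highest of 27 control probe sets for Bacillus genes. It lay between 8.09 and 14.3 on the 4 vehicle arrays of the efferent duct and between 2.33 and 3.97 on its 4 hormone arrays, and the log2 ratio of the 3' to the 5' actin probe sets was 3.11 to 3.87 against 0.91 to 1.93. Across the caput arrays the background was 7.82 to 12.3 and the actin ratio 0.64 to 1.20. The efferent duct RNA was labelled with an amplifying kit from 50 ng and the caput RNA with another kit from 10 microg, so tissue and kit cannot be told apart. The labelled tissues carried their own markers. The summed intensity of 12 efferent duct epithelium markers was 9091 to 9638 in sham efferent duct against 3130 to 3271 in sham caput, and that of 11 caput principal cell markers was 71350 to 71740 in sham caput against 5555 to 9784 in sham efferent duct. The number of arrays limits the precision of every value below.

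In castrated efferent duct, Npy, Odam, Acbd7 and Slc17a6 were lower than in sham and S100g, Aldoc and Gabra2 were higher. Npy (probe set 1419127_at; gene at chr6:49822710-49829507, GRCm38.p6) encodes a peptide that constricts vessels and modulates sympathetic output. It read 402 and 479.5 in the 2 sham arrays and 13.8 and 10.1 in the 2 castrated ones, 37.3-fold lower. Both castrated values lay only just above the backgrounds of their arrays, 13.24 and 10.06, so the size of this fold is limited by the background. After TP, Npy read 3.72 and 7.82, and after E2 8.05 and 9.81. No hormone-treated or castrated array of the efferent duct came near the sham level. In caput, Npy varied widely between the 2 arrays of a group: 37.5 and 80.7 in sham, 20.1 and 41.7 after castration, 9.65 and 25.0 after TP, and 6.25 and 51.1 after E2. All 4 caput groups overlapped with their neighbours in order of level.

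Odam (1430186_at; chr5:87885010-87894809) encodes odontogenic ameloblast-associated protein. It read 507 and 293 in sham efferent duct. The castrated arrays read 16.2 and 17.2, 23.1-fold lower, the TP arrays 12.98 and 20.8, and the E2 arrays 32.2 and 16.9. The 3 castrated groups of the efferent duct overlapped with each other and lay well below both sham arrays. Caput gave another order of groups, with 59.99 and 58.7 in sham, 71.3 and 80.4 after castration, 79.0 and 67.4 after TP, and 14.6 and 16.4 after E2. There the E2 pair stood below all 6 other caput arrays.

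Acbd7 (1430107_at; chr2:3332814-3340998) belongs to the acyl-CoA-binding protein family, whose members bind activated fatty acids in the cytosol. It was read at 320 and 303 in sham efferent duct and at 21.4 and 22.0 after castration, 14.4-fold lower. The TP pair, at 82.0 and 53.3, lay above the castrated pair and above the E2 pair at 26.5 and 27.3, and below sham. In caput the values were 145 and 159 in sham, 15.4 and 36.0 after castration, 207 and 172 after TP, and 21.4 and 18.2 after E2. Both TP arrays of the caput stood above both sham arrays, and the E2 pair lay within the range of the castrated pair.

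Slc17a6 (1428379_at; chr7:51621830-51671126) loads glutamate into synaptic vesicles. Its kept probe set read 88.5 and 141 in sham efferent duct and was below background on both castrated arrays, at 4.31 and 3.62. Where a group was below background on both arrays, the fold is a bound, computed with each of those arrays set to its own background. On this scale the castrated level was at least 9.67-fold lower. It read 16 and 38.3 after TP and 8.60 and 10.1 after E2, and all 8 caput arrays were below background. The second probe set of Slc17a6, 1418610_at, did not show this difference: its mean was 11.8 ± 2.60 (SD, n = 2) after castration and 17.3 ± 8.28 in sham, with 1 of 2 arrays above background in each.

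The other 3 genes were brighter after castration. S100g (1448964_at; chrX:162961992-162964599) encodes a protein that ferries calcium through epithelial cells. It read 30.5 and 30.7 in sham efferent duct and 117 and 160.2 after castration, 4.47-fold higher. The hormone arrays read 85.9 and 84.0 after TP and 173 and 168 after E2. Every castrated array, with or without hormone, stood above both sham arrays. Caput S100g was low, below background on both sham arrays (10.6 and 4.56), and it read 21.5 and 25.9 after castration, 21.0 and 10.6 after TP, and 32.4 and 34.3 after E2.

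Aldoc (1451461_a_at; chr11:78323073-78327781) encodes the aldolase form abundant in brain. It read 160.5 and 169.5 in sham efferent duct and 671 and 785 after castration, 4.40-fold higher. The TP pair read 588 and 500.2 and the E2 pair 1117 and 1389. The 4 efferent duct groups did not overlap with each other. Caput held the same order, with 979 and 965 in sham, 1719 and 1749 after castration, 601 and 706 after TP, and 2406 and 1741 after E2, except that TP lay below sham there. The castrated and E2 pairs of the caput overlapped. The dimmer second probe set of Aldoc, 1424714_at, had means of 37.2 ± 21.5 after castration and 11.9 ± 14.3 in sham efferent duct (SD, n = 2 each), with 1 of the 2 sham arrays above background.

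Gabra2 (1455444_at; chr5:70958392-71095849) encodes an alpha subunit of the chloride channel opened by GABA. It was below background on both sham efferent duct arrays, at 7.13 and 7.75, and read 135 and 104 after castration, at least 10.97-fold higher. After TP it read 3.38 and 5.65 and after E2 27.5 and 35.9. The castrated vehicle pair therefore stood above both hormone pairs. In caput 6 of the 8 arrays were below background. Of its 4 other probe sets, 2 were above background on no array of the efferent duct or the caput. Of the remaining pair, 1443865_at read 22.5 ± 16.9 (SD, n = 2) in castrated efferent duct and 7.22 ± 2.65 in sham, and 1421738_at read 10.2 ± 0.87 and 1.10 ± 1.06, with 2 and 1 of the 2 castrated arrays above background and none of the sham arrays.

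**Figure D1:**
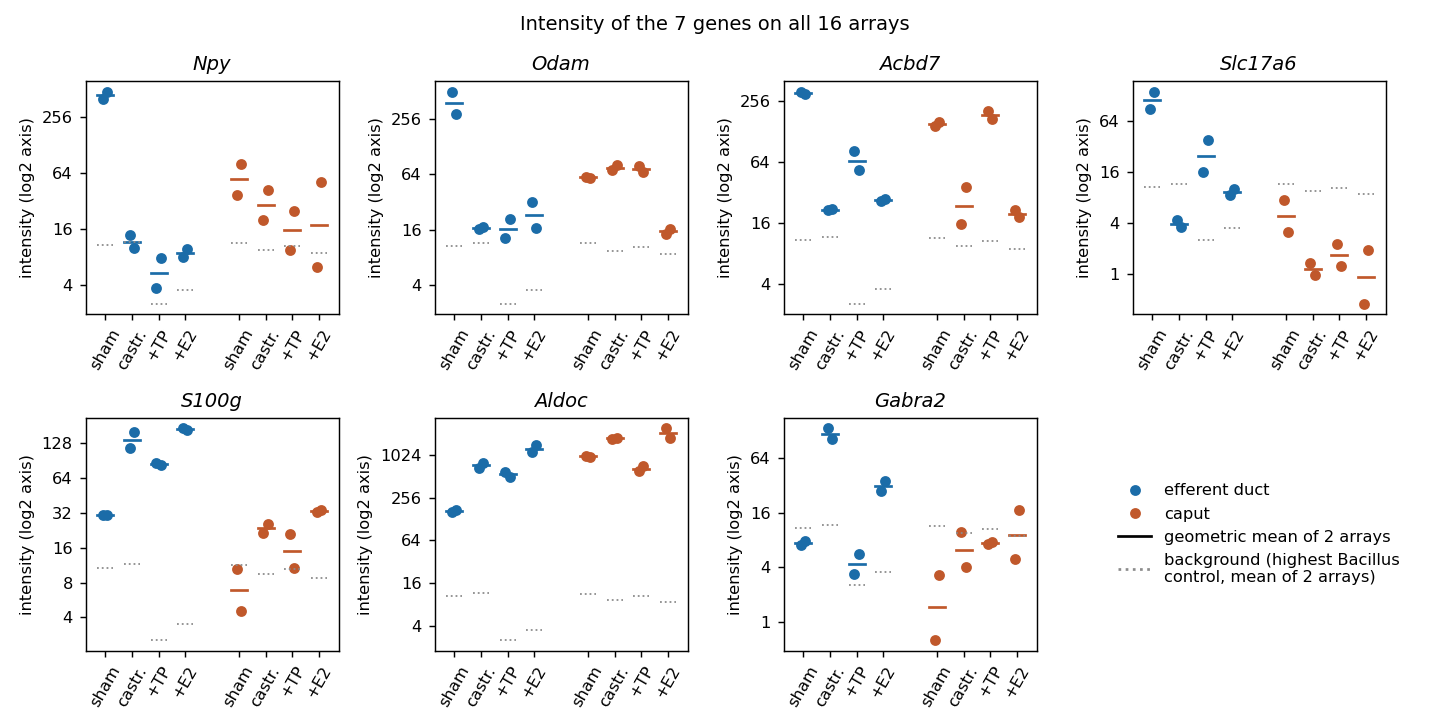
Intensity of the kept probe set of each gene (log2 axis) on the 16 arrays, by tissue and group. Points are single arrays, short bars are geometric means of 2 arrays, and dotted lines are the background. Npy, Odam, Acbd7 and Slc17a6 were highest in sham efferent duct, where Npy read 402 and 479.5, and S100g, Aldoc and Gabra2 were lower in sham than in castrated efferent duct.

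By size, the efferent duct difference of Npy (log2 -5.22) ranked 31 among the 18194 genes, with its castrated arrays only just above background. That of Odam (-4.53) ranked 55 and that of Acbd7 (-3.84) 134. S100g (2.16) and Aldoc (2.14) ranked 1073 and 1104. Slc17a6 and Gabra2 are given no rank, since 1 of their groups was below background and their folds are bounds, at least 9.67 and at least 10.97. A difference of at least 4-fold was found in 1297 genes, 7.13% of all, of which 625 were higher and 672 lower after castration, and 7 of 7 members met it because they were selected on it. S100g and Aldoc stood just inside that fold.

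In these bulk samples, fewer cells of a type and less RNA per cell cannot be told apart, and markers of other cells moved with the same contrast. The summed caput principal cell markers of the efferent duct arrays were 5555 to 9784 in sham, 76.5 to 227 after castration, 365 to 2857 after TP and 149 to 884 after E2, and 7, 1, 8 and 9 of the 11 were above background on both arrays of those groups. The 16 measured markers of neurons summed to 406 to 478 in sham and 187 to 221 after castration, with 433 to 446 after TP and 395 to 447 after E2. In those groups 4, 7, 12 and 13 of the neuron markers were above background on both arrays. Their median castrated minus sham difference was log2 0.76, against 0.02 for all genes, so the sum and the median went opposite ways. The 13 sperm and germ cell markers summed to 1646 to 1722 in sham, 1134 to 1498 after castration, 758 to 2268 after TP and 864 to 883 after E2. Of them 10, 2, 13 and 10 were above background on both arrays, with a lower background on the hormone arrays. The part of these cells in the changes of Npy, Odam, Acbd7 and Slc17a6 was not tested.

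To show what lies at the start of the 3 genes called in caput below, and of S100g, known for its response to steroid hormones in other tissues, 4 promoter windows were read from RefSeq (GRCm38.p6), from 250 bases before to 50 bases after an annotated start and written 5' to 3' on the gene's strand. The Odam window lies at chr5:87884760-87885059 (plus strand), S100g at chrX:162964550-162964849 (minus strand), Acbd7 at chr2:3335918-3336217 (plus strand) and Aldoc at chr11:78322823-78323122 (plus strand). Capitals mark each match on either strand to GGTCA, 1 arm of the estrogen response element, to AGAACA, 1 arm of the androgen response element, or to TATAAA, the TATA box.
Odam: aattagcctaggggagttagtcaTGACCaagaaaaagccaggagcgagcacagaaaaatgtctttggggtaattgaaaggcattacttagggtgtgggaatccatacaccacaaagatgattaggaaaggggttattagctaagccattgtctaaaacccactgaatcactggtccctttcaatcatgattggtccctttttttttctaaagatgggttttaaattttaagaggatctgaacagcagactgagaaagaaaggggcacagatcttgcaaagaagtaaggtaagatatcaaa
S100g: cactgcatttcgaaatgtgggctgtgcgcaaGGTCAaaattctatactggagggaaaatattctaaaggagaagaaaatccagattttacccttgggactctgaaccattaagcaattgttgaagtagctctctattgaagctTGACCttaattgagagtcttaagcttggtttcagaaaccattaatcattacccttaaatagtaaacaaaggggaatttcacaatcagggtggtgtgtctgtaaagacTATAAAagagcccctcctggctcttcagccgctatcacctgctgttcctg
Acbd7: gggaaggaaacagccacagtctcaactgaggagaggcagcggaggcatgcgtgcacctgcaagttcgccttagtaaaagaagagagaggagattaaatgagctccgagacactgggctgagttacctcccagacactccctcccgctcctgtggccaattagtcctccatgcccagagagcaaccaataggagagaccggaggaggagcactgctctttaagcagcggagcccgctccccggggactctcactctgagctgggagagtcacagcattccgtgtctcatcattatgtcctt
Aldoc: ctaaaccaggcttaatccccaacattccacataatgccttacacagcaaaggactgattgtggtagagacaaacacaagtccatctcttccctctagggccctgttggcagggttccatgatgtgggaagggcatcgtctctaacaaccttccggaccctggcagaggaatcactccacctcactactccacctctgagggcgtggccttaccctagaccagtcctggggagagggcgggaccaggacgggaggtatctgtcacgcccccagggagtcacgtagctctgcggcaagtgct

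Odam held GGTCA on the strand opposite to the gene with its first base at -227 from the start. S100g held it at -219 on the gene's strand and at -107 on the opposite strand, and held TATAAA at the annotated start itself. The Acbd7 and Aldoc windows held none of these 3 motifs. The Acbd7 window lies inside the annotated span of the gene, which begins at chr2:3332814, so the bases around that end were not read. Among all 9 windows of the 7 genes, the remaining match was GGTCA at -48 of Slc17a6, and no window held the full estrogen element GGTCANNNTGACC or the full androgen element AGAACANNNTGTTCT. Of 32851 mouse promoter windows of the same length, 40.5% held GGTCA, 19% AGAACA, 13.6% TATAAA, 0.07% the full estrogen element (which contains the arm) and 0.00913% the full androgen element. A match is a run of letters and not a measured binding site.

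The caput arrays, which took no part in the choice of the genes, were used to ask whether the same genes respond to castration one segment further along. In a limma model of the 8 caput arrays, p-values were adjusted by Benjamini-Hochberg over all 18194 genes, and a gene was called at an adjusted p under 0.05. In castrated against sham caput 2 of 7 members were called, against 14.0% of all genes. Acbd7 fell from 152 ± 9.77 to 25.7 ± 14.6 (SD, n = 2 each), 6.45-fold (log2 -2.69 ± 0.41 SE, adjusted p = 0.0183). Aldoc rose from 972 ± 9.32 to 1734 ± 21.3, 1.78-fold (log2 0.84 ± 0.19 SE, adjusted p = 0.0464). In both genes the 2 castrated arrays lay clear of the 2 sham arrays.

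The Acbd7 call was lost without sham array 1 (adjusted p = 0.0869) or sham array 2 (0.0825) and held without castrated array 1 (0.0357) or 2 (0.0211). The Aldoc call was lost without any 1 of the 4 arrays (adjusted p 0.151 to 0.168). With the replicate number as a block, Acbd7 remained called (0.0411) and Aldoc was not (0.0810), and the same held when every probe set was tested singly (0.0272 and 0.0660).

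The remaining members were not called. S100g read 23.7 ± 3.06 after castration and was below background on both sham arrays, at least 2.06-fold higher (adjusted p = 0.0766). Odam differed by log2 0.35 (95% interval -0.01 to 0.71, adjusted p = 0.169), with both castrated arrays above both sham arrays. For Npy the interval, -3.79 to 1.94, spans both directions (adjusted p = 0.628), and Slc17a6 and Gabra2 were below background on both sham arrays. Caput principal cell markers summed to 71350 to 71740 in sham and 6357 to 6545 in castrated caput, and sperm and germ cell markers to 2241 to 8203 and 441 to 482. Their part in the fall of Acbd7 was not tested.

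**Figure D2:**
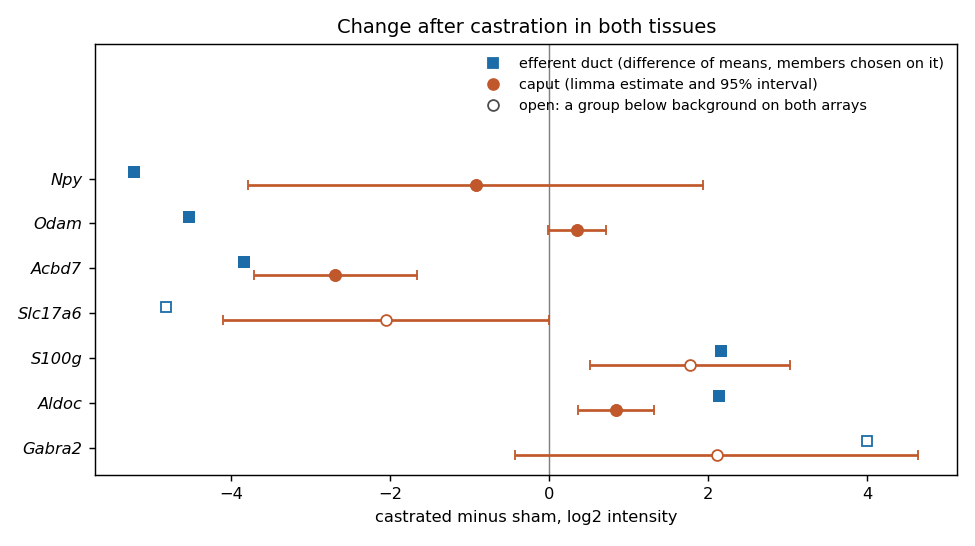
Log2 difference of castrated minus sham for each gene, as a difference of means in efferent duct (squares, no error drawn because the genes were chosen on it) and as the limma estimate with its 95% interval in caput (circles). Open symbols mark a gene with a group below background on both arrays, where the plotted value is no measured difference. Acbd7 was lower in both tissues (-3.84 and -2.69) and Aldoc higher in both (2.14 and 0.84), whereas Odam differed by -4.53 in efferent duct and 0.35 in caput.

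A single dose of hormone 12 h before tissue collection was compared with vehicle in castrated caput. With TP, 2 of 7 members were called, against 1.67% of all genes. Acbd7 rose 8-fold, from 25.7 ± 14.6 to 189 ± 24.6 (SD, n = 2 each; log2 3 ± 0.41 SE, adjusted p = 0.0434), and both TP arrays lay above both castrated arrays. Aldoc fell 2.66-fold, from 1734 ± 21.3 to 653 ± 74.0 (log2 -1.41 ± 0.19 SE, adjusted p = 0.0430), again with no overlap. Both calls were lost without any 1 of the 4 arrays compared, at adjusted p 0.0525 to 0.164 for Acbd7 and 0.139 to 0.191 for Aldoc, and when replicate number was blocked (0.0925 and 0.0950) or every probe set was tested singly (0.0584 and 0.0593). Odam differed by -0.05 (95% interval -0.42 to 0.31, adjusted p = 0.885). Under TP, the caput principal cell markers summed to 13680 to 18900, against 6357 to 6545 without hormone.

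With E2, 0 of 7 members were called by limma, against 0% of all genes. At an unadjusted p under 0.05, 2637 genes and 1 member passed. That member was Odam, which read 15.5 ± 1.27 after E2 and 75.8 ± 6.47 after vehicle, 4.91-fold lower (log2 -2.29, 95% interval -2.66 to -1.93, adjusted p = 0.0501). It was called by 5 of 9 alternative settings, with adjusted p from 0.00118 to 0.272, and not with the block for replicate number (0.164). These 9 settings do not include the fits without 1 array, where its log2 difference was -2.38 to -2.21. Acbd7 differed by -0.26 (95% interval -1.29 to 0.77) and Aldoc by 0.24 (-0.24 to 0.72), with overlapping arrays in both.

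The hormones were also compared with each other, TP minus E2, in castrated caput, where 3 of 7 members were called, against 2.12% of all genes. This comparison shares its TP and E2 arrays with those above. Acbd7 was higher after TP, 9.55-fold (log2 3.26 ± 0.41 SE, adjusted p = 0.0351). Odam was higher after TP as well, 73.2 ± 8.17 against 15.5 ± 1.27 (SD, n = 2 each), 4.73-fold (log2 2.24 ± 0.14 SE, adjusted p = 0.0131). Aldoc was lower after TP, 3.14-fold (log2 -1.65 ± 0.19 SE, adjusted p = 0.0300). All 3 calls were lost without any 1 of the 4 TP and E2 arrays (adjusted p 0.124 to 0.144 for Acbd7, 0.0695 to 0.0807 for Odam and 0.0707 to 0.134 for Aldoc) and with the block (0.0780, 0.0577 and 0.0763). When every probe set was tested singly, Acbd7 lost its call (adjusted p = 0.0513), and Odam (0.0265) and both probe sets of Aldoc (0.0458, and 0.0417 for the dimmer one, at least 3.69-fold lower after TP) were called. S100g, the calcium carrier, differed by -1.16 (95% interval -2.42 to 0.10, adjusted p = 0.319).

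In efferent duct, where the hormone arrays were not used to choose the genes, 0 of 7 members were called by limma between TP and E2, and 0% of all genes. The spread of this fit was pooled over the 8 efferent duct arrays, the sham and castrated ones used in the choice included. Its p-values are therefore not independent of the choice. At an unadjusted p under 0.05, 1467 genes and 5 of 7 members passed. Gabra2 read 4.51 ± 1.61 after TP and 31.7 ± 6.00 after E2 (SD, n = 2 each), 7.19-fold lower after TP (log2 -2.85 ± 0.32 SE, adjusted p = 0.122). Acbd7 was 2.46-fold higher after TP (adjusted p = 0.272), Slc17a6 2.65-fold higher (0.528), S100g 2.01-fold lower (0.308) and Aldoc 2.30-fold lower (0.225). The TP and E2 arrays of Gabra2 did not overlap. For Odam the interval of the log2 difference was -1.63 to 0.62 and for Npy -1.72 to 0.28.

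**Figure D3:**
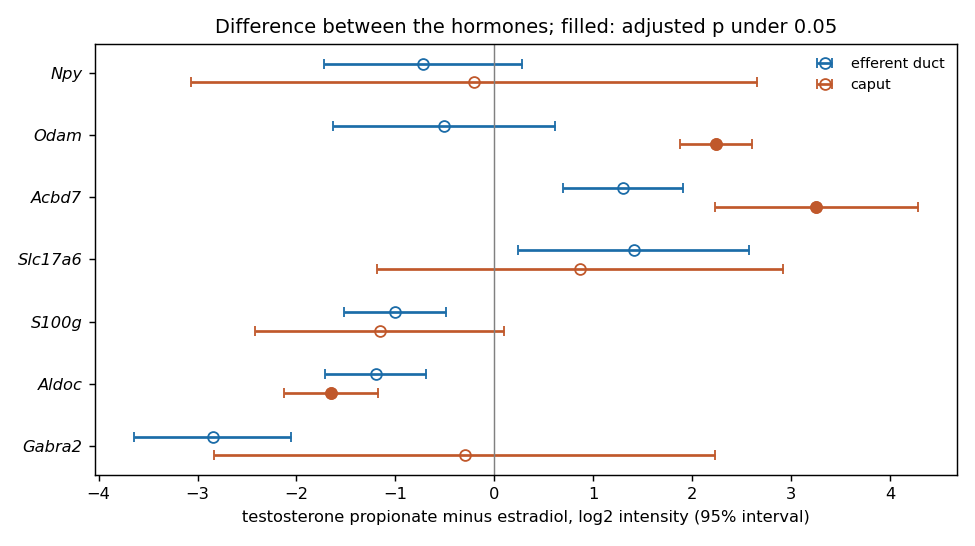
Log2 difference between the hormones (TP minus E2) in castrated efferent duct and castrated caput, with 95% intervals from limma. Filled symbols mark an adjusted p under 0.05. Acbd7, Odam and Aldoc are filled in caput (3.26, 2.24 and -1.65) and no gene is filled in efferent duct.

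Whether the hormones differ in another way in the efferent duct than in the caput was tested as an interaction over all 16 arrays. Its spread was pooled over these arrays, the efferent duct arrays used in the choice included. The interaction called 0 of 7 members by limma, against 0.0495% of all genes, which is 9 genes. At an unadjusted p under 0.05, 1690 genes and 3 members passed. Odam gave log2 -2.75 ± 0.49 SE (adjusted p = 0.135), Acbd7 -1.96 ± 0.49 SE (adjusted p = 0.242) and Gabra2 -2.55 ± 1.11 SE, each lower for efferent duct minus caput. For Odam, 3 of 8 alternative settings gave a call, with adjusted p from 0.0359 to 0.327. Aldoc gave 0.45 (95% interval -0.15 to 1.05) and S100g 0.15 (-1.10 to 1.40).

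Compared with castrated vehicle, the efferent duct hormone groups are given without a test, since the castrated arrays were used to select the genes and the vehicle and hormone arrays differ in quality. TP and castrated vehicle differed by log2 1.61 for Acbd7, -4.76 for Gabra2 and -0.02 for Odam. The Gabra2 values after TP, 3.38 and 5.65, lay under the backgrounds of the castrated vehicle arrays (13.24 and 10.06). The size of that Gabra2 difference is therefore limited by the background. E2 and castrated vehicle differed by 0.31 for Acbd7, -1.91 for Gabra2 and 0.48 for Odam. Against sham, Npy was 81.4-fold lower after TP and 49.4-fold lower after E2, Odam 23.5-fold and 16.5-fold lower, and Acbd7 4.70-fold and 11.6-fold lower. The Npy values after hormone, 3.72 to 9.81, lay under the backgrounds of the castrated vehicle arrays (13.24 and 10.06). These Npy folds therefore cannot show a fall beyond that of castration alone.

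The other genes of the members' pathways and families were taken from 10 lists, of which 136 of 154 genes could be measured. In castrated against sham caput, the comparison of the list counts below, 1437 of all 18194 genes rose and 1113 fell (14.0% called), and each list's count reads against that share with no test of its own. The NPY list of peptides and receptors held 8 measured genes besides Npy, and in castrated against sham caput 1 of them fell and none rose. It was Ppy, pancreatic polypeptide, which fell at least 18.4-fold (adjusted p = 0.0180). The median of the list was log2 -0.28, against 0.06 for all genes. Npy1r, a receptor for Npy, read 14.8 and 17.5 in sham efferent duct and 12.6 and 9.05 after castration. Both castrated values were under the backgrounds of their arrays (13.24 and 10.06), and the first sham value was just above its own (14.34). Among 13 measured genes of neuropeptide processing, 1 rose and 1 fell: Scg5, a chaperone of prohormone convertase, rose 14.9-fold (adjusted p = 0.00105), and Scg2 fell although below background in both groups.

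Of 22 measured genes of GABA receptors and GABA handling besides Gabra2, 3 rose and 3 fell in castrated caput (median log2 -0.14). Gabre rose 4.17-fold, Gabrp 2.81-fold and Gabra3 1.78-fold, and Gabrb1 fell 4.96-fold and Gabra4 2.96-fold, all of them receptor subunits. The vesicular GABA transporter Slc32a1 fell at least 1.55-fold. In the 12 measured genes of glutamate transport besides Slc17a6, none rose and 2 fell, Slc1a1, a glutamate carrier of the cell surface, 4.82-fold and Got2, a mitochondrial aminotransferase, 2.96-fold. Slc17a9, the vesicular nucleotide transporter, fell 7.23-fold and was the 1 called gene among 6 measured SLC17 relatives.

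The acyl-CoA-binding list held 8 measured genes besides Acbd7, of which 1 rose and 2 fell in castrated caput. Dbi, the founding member of the family, fell 2.33-fold, from 3171 ± 177 to 1363 ± 170 (SD, n = 2 each; adjusted p = 0.0159), Eci2 fell 1.65-fold and Acbd4 rose 2.01-fold. With TP or E2, no acyl-CoA-binding gene other than Acbd7 was called. Dbi read 1247 and 1484 after TP, within 1210 to 1484 over the castrated groups of the caput, where Acbd7 was 8-fold higher than after vehicle.

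Besides S100g, 12 calcium transport and vitamin D genes were measured, and in castrated caput 2 rose and 1 fell. Slc8a1, a sodium-calcium exchanger, rose 7.02-fold (adjusted p = 0.00507) and fell 7.17-fold with TP (adjusted p = 0.0147). The calcium pump Atp2b1 rose 1.69-fold and its relative Atp2b4 fell 1.88-fold. In efferent duct, the vitamin D receptor gene Vdr read 38.2 and 103 in sham and 193 and 209 after castration. Trpv6, of the same list, went the other way, from 82.0 and 39.0 to 16.8 and 7.46, the last under its array's background of 10.06. Of the 12 genes, 1 was at least 4-fold higher and 2 at least 4-fold lower in castrated efferent duct, with no test. Calb1, the larger calbindin, read 97.8 and 102 after E2 and 30.2 to 37.3 in the other 3 efferent duct groups. Of 12 measured S100 genes besides S100g, none rose and 2 fell in castrated caput, S100b at least 5.72-fold and S100a1 1.81-fold.

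Glycolysis held 22 measured genes besides Aldoc, of which 2 rose and 3 fell in castrated caput (median log2 -0.20). Slc16a1, a lactate carrier, rose 2.08-fold and the phosphofructokinase Pfkp 1.79-fold, and the hexokinase Hk2 fell 3.60-fold, the glucose carrier Slc2a3 2.41-fold and Pgam2 at least 4.11-fold. With TP, 2 rose and none fell: Hk2 3.35-fold and Slc2a3 2.84-fold, opposite in sign to Aldoc. The widely expressed aldolase Aldoa read 1603 to 3174 over all 16 arrays and was called in none of the 4 caput comparisons. Among 15 measured genes of the secretory phosphoprotein and enamel list besides Odam, 1 rose and 1 fell, Sparcl1 1.93-fold and Sparc 2.27-fold. The enamel gene Ambn was above background on no array.

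**Figure D4:**
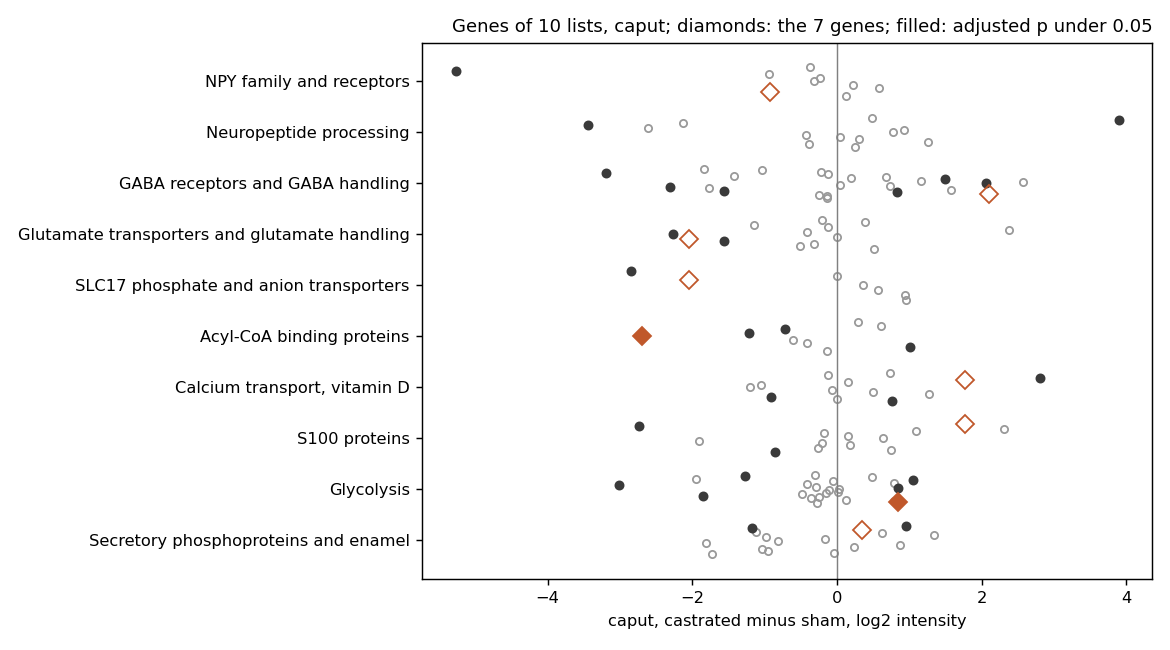
Log2 difference of castrated minus sham caput for the measured genes of the 10 lists, 1 row a list. Circles are genes other than the 7, diamonds are the 7 genes, and filled symbols mark an adjusted p under 0.05 over all genes. Acbd7 (-2.69) and Aldoc (0.84) are the filled diamonds.

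Genes with the most similar pattern were sought as a description, by Pearson's r of mean log2 intensity over the 8 groups, among 9752 genes that were above background in some group and spanned at least 2 log2 units. The nearest were Cldn23 for Npy (r = 0.92), Pnmt for Odam (0.97), Kcnc4 for Acbd7 (0.98), Apaf1 for S100g (0.98), 6720483E21Rik for Aldoc (0.98), Erich6 for Slc17a6 (0.97) and Pln for Gabra2 (0.97). Kcnc4, a potassium channel, had a mean of 164 in sham and 4.59 in castrated efferent duct. The castrated mean lay under the backgrounds there (13.24 and 10.06), so the likeness of Kcnc4 to Acbd7 rests partly on values under background. Pln, which restrains the sarcoplasmic calcium pump, had means of 34.1 in sham and 138 in castrated efferent duct. All these values share the 16 arrays and the 2 labelling kits, and the 8 groups include the sham and castrated efferent duct groups on which the members were chosen. Slc17a6 was below background on both arrays in 5 of the 8 groups, so its likeness rests largely on the other 3. Gabra2 was below background on both arrays in sham efferent duct and in sham and TP-treated caput. The highest group mean of 6720483E21Rik was 14.1, in castrated caput. In sham and castrated efferent duct its means were 1.16 and 5.65, against backgrounds of 8.09 to 14.3, so its likeness to Aldoc rests partly on values under background.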

How the data were processed

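RNA of efferent duct and caput epididymis was hybridised to 16 single-colour Affymetrix mouse arrays (45101 probe sets), 2 for each of 8 groups, which were taken from the sample titles. The authors deposited 1 intensity per probe set and array. RMA is named, with no version, in the submitters' processing notes, but the deposited intensities are linear, from 0.00471 upward, and each array has a trimmed mean of 125 (2% left out at each end), which is not the usual form of RMA values. No aligner or build applies, and the step that set this mean is not given in the sources used here.

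Intensities were taken to log2 with no further scaling. Gene symbols came from the platform annotation: 34958 probe sets had 1 symbol, 932 several and 9211 none, and the brightest of a gene's probe sets with 1 symbol was kept (18194 genes). For each tissue, 1 limma model (limma 3.58.1, R 4.3.3) of 8 arrays and 4 groups was fitted with lmFit and eBayes, and the interaction was fitted over 16 arrays. Adjusted p-values are Benjamini-Hochberg values over all genes, with 0.05 as the threshold. The fit was tested on simulated data. Of 112 values of the members, 90 were above background. The 7 genes, the gene lists and the cell type markers were chosen with earlier results of these data known, so no p-value was adjusted over a list alone. Genes named were the 7 members, at most 3 list genes in each direction that passed a test, and family relatives. Alternatives tried were the mean of a gene's probe sets, every probe set tested singly, no dim genes, a floor of 16, quantile normalization, an intensity trend in the prior, other samples in the fit, a block for replicate number, and leaving out single arrays.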

Additional observations from a re-analysis of the deposited data

Results flagged for a closer look

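The arrays of Odam lay in opposite order in the tissues after castration, while the caput difference did not pass its test. Its log2 difference of castrated minus sham was -4.53 in the efferent duct, where both castrated arrays were below both sham arrays, and 0.35 in the caput, where both castrated arrays were above both sham arrays. The difference between the tissues was not tested, because Odam was chosen for its efferent duct change. The caput difference had an adjusted p of 0.169 by limma (95% interval -0.01 to 0.71).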

How the results depend on the processing

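The member calls of the caput comparisons rest on the spread pooled over the 8 arrays of a tissue. With only the arrays compared in the fit, 0 members and 0 genes were called in castrated against sham, TP against castrated and TP against E2 caput, and 0 genes in the interaction. The replicate number as a block left 1 member and 1556 genes in castrated against sham, 0 and 7 in TP against castrated, 0 and 9 in TP against E2, and 0 genes in the interaction. Same-numbered arrays of different treatment groups within a tissue had deviations that correlated at -0.03 to 0.07, so no pairing by number was seen there. Whether the efferent duct and caput arrays of a treatment are paired was not examined. Leaving out 1 array gave 0 to 1 members and 326 to 523 genes in castrated against sham, 0 and 6 to 12 in TP against castrated, 0 and 0 to 13 in TP against E2, and 0 and 0 to 22 in the interaction. Taking the mean of a gene's probe sets gave 1504 genes in castrated against sham, 118 genes and 1 member in TP against castrated, 153 genes in TP against E2 and 0 in the interaction. Testing every probe set gave 1 member in castrated against sham, 0 in TP against castrated, 253 probe sets in TP against E2 and 0 in the interaction.

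The next 3 choices raised the counts of genes called in the comparisons named. Without the dimmest 40% of genes they were 4013 in castrated against sham, 1437 in TP against castrated, 465 with 1 member in E2 against castrated, 1158 in TP against E2, 48 in the efferent duct comparison of the hormones and 56 with 1 member in the interaction. With a floor of 16 they were 926, 343 with 1 member, 781, 65 and 207 with 1 member for TP against castrated onward in that order. With an intensity trend they were 4408, 1687, 724 with 1 member, 1396, 118 with 2 members and 64 with 1 member, from castrated against sham onward. A fit of all 16 arrays and quantile normalization moved counts either way, with 2410 and 2352 genes in castrated against sham. The 16-array fit gave 104 genes and 1 member in E2 against castrated and 132 and 1 in the efferent duct. Quantile normalization gave 11 genes and 1 member in E2 against castrated and 1 gene in the interaction.

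No called member value changed sign under any of these settings. Uncalled log2 values that did were, with the mean of probe sets, Gabra2 at -0.69 (TP against castrated), -1.11 (E2 against castrated) and 0.41 (TP against E2), and Slc17a6 at 1.01 (E2 against castrated) and -0.74 (TP against E2). With quantile normalization they were Odam at 0.00095 (TP against castrated), Npy at 0.027 (TP against E2) and S100g at -0.27 (interaction), and with a floor of 16 Npy at 0.52 and S100g at -0.14 (interaction). Without 1 array, values ranged from -0.17 to 0.061 for Odam and -0.39 to 0.88 for Gabra2 in TP against castrated. In E2 against castrated they ranged from -2.21 to 0.82 for Npy, -1.35 to 0.72 for Slc17a6, -0.34 to 1.43 for Gabra2 and -0.87 to 0.36 for Acbd7. In TP against E2 they ranged from -1.72 to 1.31 for Npy, -0.17 to 1.90 for Slc17a6 and -1.18 to 0.59 for Gabra2. In the interaction they ranged from -2.04 to 1.00 for Npy, -0.34 to 0.64 for S100g and -0.49 to 1.58 for Slc17a6. In the efferent duct, the direction of castrated minus sham is fixed by the choice of the genes and is no sign of stability. Among single probe sets, 1420299_at of Gabra2 ran the other way (-0.41, below background in both groups), and with a floor of 16 Slc17a6 was -2.80 and Gabra2 2.88. The causes were not tested, and signal over background limits Slc17a6, Gabra2 and, in castrated efferent duct, Npy.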

Other observations

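Odam in E2-treated caput (14.6 and 16.4) was close to the efferent duct levels of all castrated groups (12.98 to 32.2). In castrated and TP-treated caput it read 67.4 to 80.4. The difference of Odam between E2-treated and castrated caput was not called (adjusted p = 0.0501 by limma). Intensities of the same probe set are compared here across tissues that were labelled with different kits.

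The efferent duct difference of Slc17a6 was seen in 1 of its 2 probe sets. The kept one was at least 9.67-fold lower after castration, and the other read 13.7 and 10.0 after castration and 11.5 and 23.2 in sham, which overlap. For Gabra2 the kept probe set was at least 10.97-fold higher and 1443865_at at least 1.77-fold higher after castration. The castrated arrays of 1443865_at read 34.4 and 10.5, the second just above its background of 10.06. Probe set 1421738_at gave no such bound, and 1420299_at and 1449807_x_at were below background in both groups.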
